A study of Homo sapiens with 14 samples.

Results

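The EGF-family genes described here are 5 ligands and 1 receptor, AREG, EREG, HBEGF, TGFA and NRG1 with EGFR. They were taken by name and are 6 of the 54628 gene symbols counted in the series. RNA was sequenced from 14 libraries whose titles all name IMR90, a strain of primary human lung fibroblasts. Untreated cells (WT) and untreated cells given an siRNA against HMGB2 (siHMGB2) gave 2 libraries each. The other 10 libraries came from cells made senescent with inflachromene (ICM), a compound known to bind HMGB1 and HMGB2, proteins that bend DNA in chromatin, used at 10 µM for up to 6 days. Of these, 4 had ICM alone (ICM 1 to 4), and the other 6 are labelled, 2 each, as also given an siRNA against SRRM2, BANF1 or CTCF (siSRRM2, siBANF1, siCTCF). For ICM 3, ICM 4, siCTCF 1 and siCTCF 2 the cell line field reads IMR91, IMR92, IMR93 and IMR94 in turn, against IMR90 in their titles. These 4 were kept apart as a set on that ground, whether they are a separate batch is not stated, and untreated cells have no library among them. The siRNA groups on ICM were set against the ICM pair whose labels they share. No library title names a control siRNA, so transfection and loss of the target cannot be told apart in any siRNA group. The labels speak of 2 isolates of the cells but do not tie them to libraries, so nothing says that replicates came from separate cultures, and p-values measure the spread between these libraries, which may be technical.

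EGF-family ligands are made as precursors in the cell membrane, and proteases of the ADAM family, ADAM17 above all, cut the soluble growth factor free. AREG (amphiregulin), EREG (epiregulin), HBEGF (heparin-binding EGF-like growth factor) and TGFA (transforming growth factor alpha) bind EGFR, and EREG and HBEGF also bind ERBB4. NRG1 (neuregulin 1) binds ERBB3 and ERBB4, which pair with ERBB2. Ligand binding starts the RAS and ERK kinase cascade, which in turn raises transcripts of its own inhibitors and of some of the ligands. In fibroblasts, AREG, EREG and NRG1 are also known as secreted products of senescent cells.

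AREG and EREG are neighbours on chromosome 4 of GRCh38.p14, EREG at chr4:74365145-74388749 and AREG at chr4:74445136-74455005, both on the plus strand. The 56.4 kb between them holds 0 other genes of the RefSeq table. HBEGF lies at chr5:140332843-140346603 on the minus strand, EGFR at chr7:55019017-55211628 on the plus strand and TGFA at chr2:70447284-70553826 on the minus strand. RefSeq promoter entries were found for 5 of the 6 genes, all but NRG1. The 250 bases before the annotated start of AREG, EREG and HBEGF, the 3 EGFR ligands of the set that were tested, are shown here, 5′ to 3′ along each gene. They cover chr4:74444886-74445135 for AREG, chr4:74364895-74365144 for EREG and chr5:140346604-140346853 for HBEGF. Capitals mark matches to the CRE motif TGACGTCA, the TATA motif TATAAA and the GC box GGGCGG or its reverse complement.
AREG: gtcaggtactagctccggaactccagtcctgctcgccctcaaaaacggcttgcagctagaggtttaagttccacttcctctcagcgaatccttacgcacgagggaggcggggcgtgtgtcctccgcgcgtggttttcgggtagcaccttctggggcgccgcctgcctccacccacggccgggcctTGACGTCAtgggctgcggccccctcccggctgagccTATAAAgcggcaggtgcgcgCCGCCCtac
EREG: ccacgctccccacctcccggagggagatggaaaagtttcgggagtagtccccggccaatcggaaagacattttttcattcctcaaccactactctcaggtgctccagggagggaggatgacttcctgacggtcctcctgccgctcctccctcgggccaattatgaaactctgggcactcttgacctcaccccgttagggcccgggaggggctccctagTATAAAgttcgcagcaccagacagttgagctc
HBEGF: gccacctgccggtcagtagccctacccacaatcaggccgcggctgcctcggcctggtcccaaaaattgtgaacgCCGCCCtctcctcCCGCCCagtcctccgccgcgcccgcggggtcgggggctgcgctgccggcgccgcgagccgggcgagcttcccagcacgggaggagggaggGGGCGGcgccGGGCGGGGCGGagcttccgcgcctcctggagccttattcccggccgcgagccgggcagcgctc
The AREG window holds a CRE at 65 to 58 bases before the start, a TATA motif at 29 to 24 and a GC box at 9 to 4. The EREG window holds a TATA motif at 32 to 27 bases and no CRE or GC box. HBEGF has 5 GC boxes, of which the last 2 share a base, and neither a CRE nor a TATA motif. The AP-1 motif TGANTCA was in none of the 3. Searched on both strands, the CRE was in 1.65%, the AP-1 motif in 6.57%, the TATA motif in 10.7% and the GC box in 42.6% of 35116 RefSeq promoters. These matches are letters in a window and say nothing of binding.

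Reads assigned to genes numbered 33561766 to 41168932 in the 4 libraries without ICM, 39435430 to 58257456 in the 6 ICM-treated libraries of the first set, and 22336161 to 26779027 in the 4 of the second. All 10 fibroblast markers, among them COL1A1 and PDGFRA, reached at least 1 CPM (reads of a gene for each 1000000 reads counted in genes) in every library, while their sum ran from 1590 CPM in siCTCF 2 to 30772 CPM in siHMGB2 2. The 7 epithelial markers summed to at most 0.729 CPM, with KRT5, SFTPC, SCGB1A1 and ESRP1 at 0 in all 14 libraries. The first of these sets had 3.19% to 6.06% of its gene counts in small RNA genes, and the other 8 libraries 0.00515% to 0.00812%. Of the targeted genes, HMGB2 measured 27.7 and 28.0 CPM in WT and 3.18 and 3.52 CPM in siHMGB2. CTCF measured 94.9 and 91.9 CPM in ICM 3 and 4, and 71.5 and 23.0 CPM in siCTCF 1 and 2. Its log2 difference there, -0.949 (SE 0.498), did not pass edgeR's test. The label siBANF1 goes against its target. Libraries labelled siBANF1 had BANF1 levels of 17.0 and 36.7 CPM, where ICM 1 had 13.5 CPM and ICM 2 had 32.7 CPM. Their SRRM2 levels, 59.0 and 17.0 CPM, were under the 76.1 and 76.4 CPM of the libraries labelled siSRRM2, and both under ICM 1 (238 CPM) and ICM 2 (112 CPM). In the libraries labelled siSRRM2, BANF1 held 34.2 and 33.3 CPM, so that BANF1 was below both ICM libraries in neither pair. The count tables deposited for these pairs are each named for the other knockdown. Which siRNA either pair received therefore cannot be told, and no direction below is read as an effect of SRRM2 or BANF1 loss. Libraries also stood apart within groups. The median over genes of the chi-square statistic between the counts of 2 libraries, which sampling alone puts at 0.455, was 50.8 between ICM 1 and ICM 2 and 49.0 between the libraries labelled siBANF1. It was 11.6 between ICM 1 and siBANF1 1, 3.18 between ICM 2 and siBANF1 2, 3.13 between the WT libraries and 1.11 between those labelled siSRRM2.

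AREG was highest in untreated cells and lower in every ICM-treated library. WT held 534 and 368 CPM and siHMGB2 350.1 and 175 CPM. ICM 1 held 43.85, ICM 2 5.64, ICM 3 17.6 and ICM 4 0.828 CPM. All 10 ICM-treated libraries lay below both WT libraries, and their levels spread over a wider ratio than those of the other 4 genes tested. The pair labelled siSRRM2 held 10.1 and 11.25 CPM, that labelled siBANF1 228 and 5.92 CPM, and those of siCTCF 25.1 and 0.448 CPM. The lowest of these, siCTCF 2, rests on 12 reads, whose 95% Clopper-Pearson interval is 0.232 to 0.783 CPM. Intervals of this kind cover counting error only. The order of the group means was WT, siHMGB2, siBANF1, ICM 1-2, siCTCF, siSRRM2 and ICM 3-4. From siHMGB2 down, each group overlapped the next, so that only the step from WT to siHMGB2 separated neighbours, and that by the small distance between 368 and 350.1 CPM.

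EREG was also highest in untreated cells, but its range over the libraries was narrower than that of AREG. WT held 97.4 and 71.7 CPM and siHMGB2 37.7 and 19.2 CPM. The ICM libraries held 12.4, 17.5, 37.2 and 15.8 CPM in the order ICM 1 to 4. Of the 10 ICM-treated libraries 9 were below both WT libraries, and siBANF1 1, at 77.3 CPM, lay between them. siBANF1 2 held 21.1 CPM, siCTCF 48.1 and 12.8 CPM, and the pair labelled siSRRM2 36.55 and 36.8 CPM, above both ICM libraries of their set. In the order of means, WT, siBANF1, siSRRM2, siCTCF, siHMGB2, ICM 3-4 and ICM 1-2, each group overlapped the next. AREG and EREG did not keep a fixed proportion. AREG had 5.48 and 5.13 reads for each read of EREG in WT and 9.29 and 9.09 in siHMGB2, against 3.53 and 0.322 in ICM 1 and 2, 0.474 and 0.0524 in ICM 3 and 4, and 0.277 and 0.306 in the libraries labelled siSRRM2.

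HBEGF followed another course, with no common direction under ICM. WT held 17.0 and 12.15 CPM and siHMGB2 21.8 and 17.4 CPM. ICM 1 and 2 held 8.18 and 23.4 CPM, and ICM 3 and 4 held 19.1 and 46.9 CPM. Of the 10 ICM-treated libraries 4 lay below both WT libraries, 4 above both and 2 between them, and all 4 of the first kind belonged to ICM 1, siSRRM2 and siBANF1. The highest levels were the 46.9 CPM of ICM 4 and the 48.2 CPM of siCTCF 2, which are the 2 libraries with the lowest AREG. siCTCF 1 held 16.5 CPM, the libraries labelled siSRRM2 7.89 and 9.498 CPM and those labelled siBANF1 7.53 and 13.4 CPM. Neighbours in the order of means, ICM 3-4, siCTCF, siHMGB2, ICM 1-2, WT, siBANF1 and siSRRM2, overlapped throughout.

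TGFA was at the edge of detection. It had no read in 11 libraries, 6 reads in ICM 2, and 3 each in ICM 4 and siCTCF 1, which is 12 reads in all and at most 0.134 CPM. A count of 0 allows up to about 3 reads, at 95% confidence in the upper limit alone. That is 0.0515 to 0.125 CPM in the libraries without a read. The upper limits of the 95% Clopper-Pearson intervals there were higher, from 0.0633 CPM in siBANF1 2 to 0.154 CPM in ICM 3. TGFA did not pass the filter on low counts, so 5 of the 6 genes were tested, and no difference in TGFA was detectable at this depth.

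**Figure D1:**
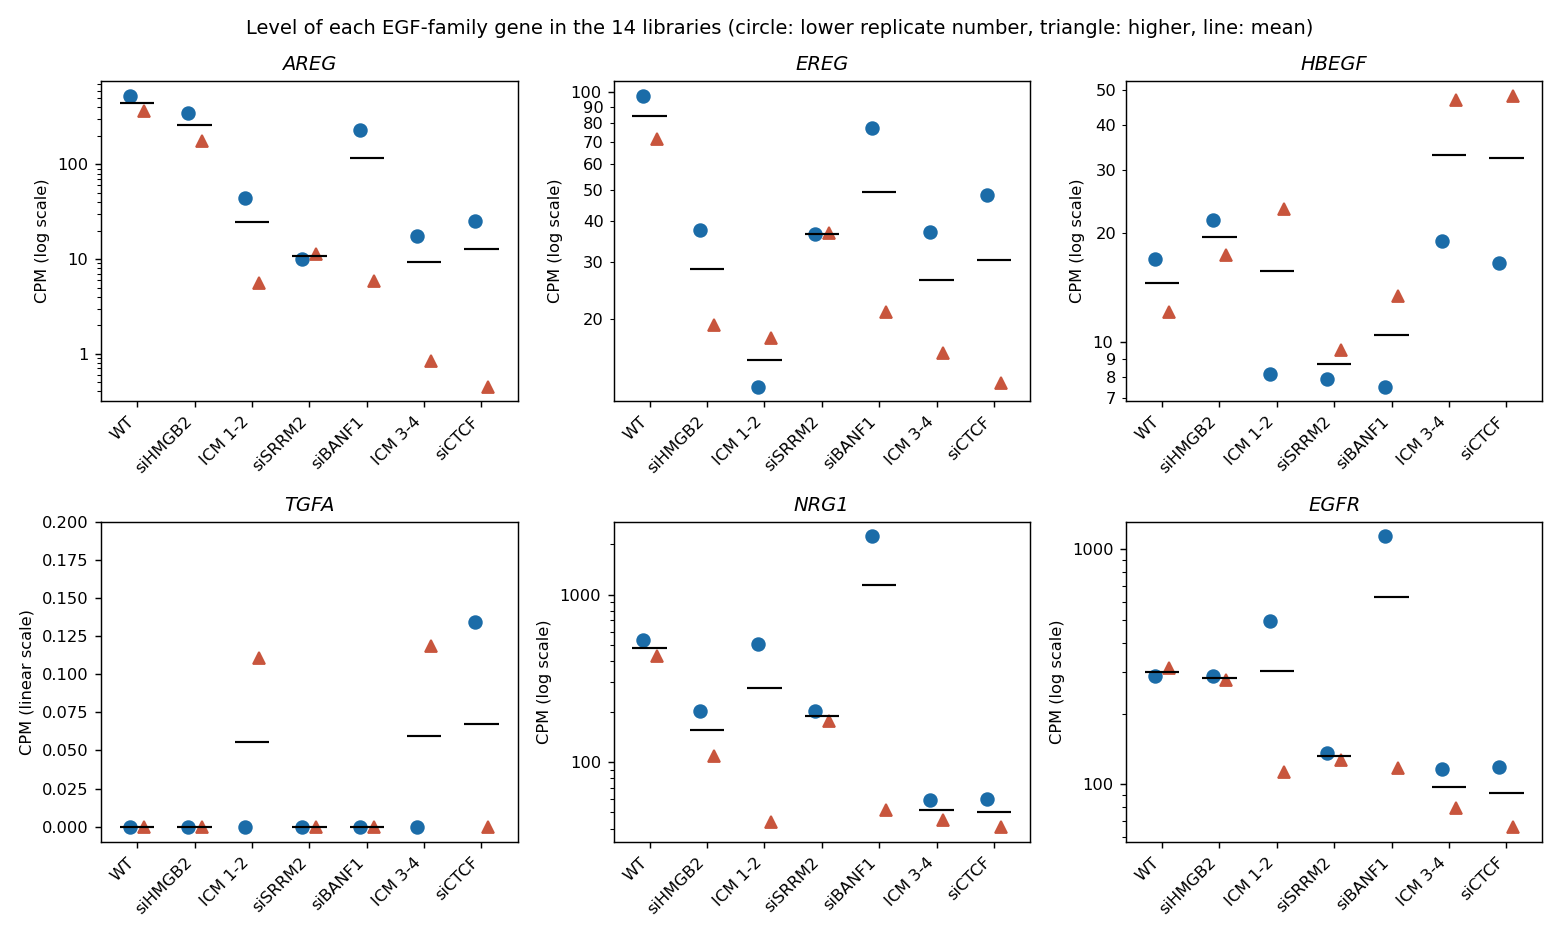
Levels of the 6 genes in CPM (vertical axis, log scale except for TGFA, which is linear) in the 2 libraries of each of the 7 groups, with the lower replicate number as a circle, the higher as a triangle and the group mean as a line. AREG in all 10 ICM-treated libraries lies below the 368 CPM of the lower WT library, while HBEGF reaches 46.9 CPM in ICM 4 and 48.2 CPM in siCTCF 2.

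Which EGFR ligand led differed between libraries. To compare genes, counts were divided by the exon length of each gene in GENCODE v29, which is 1648 bases for AREG, 5717 for EREG and 3018 for HBEGF. On this scale AREG made up 93.4% and 93.0% of the summed EGFR-ligand counts in WT, and 93.8% and 92.0% in siHMGB2. It made up 83.8% in ICM 1 and 89.6% in siBANF1 1, but 23.6% in ICM 2, 44.9% in ICM 3, 2.59% in ICM 4 and 1.43% in siCTCF 2. HBEGF, 1.63% and 1.68% in WT, was the leading ligand in ICM 2 with 53.4%, in siBANF1 2 with 37.2%, in ICM 4 with 80.3% and in siCTCF 2 with 83.8%. EREG, 4.91% and 5.23% in WT, made up 41.5% and 38.9% in the libraries labelled siSRRM2, close to the 39.8% and 41.3% of AREG there. The sum of the ligands was 347 and 240 CPM per kb in WT, 226 and 115 in siHMGB2, 155 in siBANF1 1, and 12 to 31.8 in the other 9 libraries. The annotation behind the counts is not known, so the lengths are approximate for these files.

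**Figure D2:**
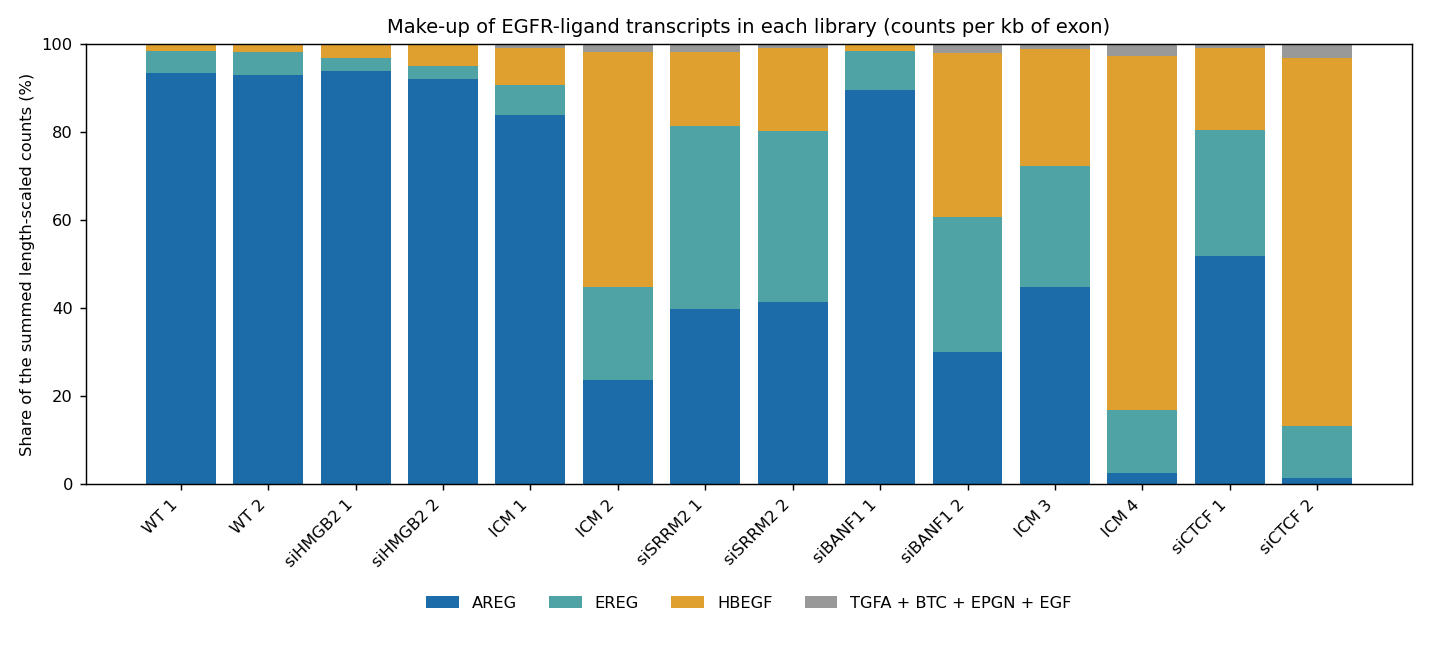
Share of each EGFR ligand (vertical axis, percent of the summed counts per kb of exon of AREG, EREG, HBEGF, TGFA, BTC, EPGN and EGF) in each library. AREG is at 92.0% or more in the WT and siHMGB2 libraries, and HBEGF is at 80.3% in ICM 4 and 83.8% in siCTCF 2.

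NRG1, the ligand of ERBB3 and ERBB4, was abundant in untreated cells and low in most, not all, ICM-treated libraries. WT held 534 and 431 CPM and siHMGB2 202 and 109 CPM. ICM 1 held 509.5 CPM, between the WT libraries, whereas ICM 2, 3 and 4 held 43.6, 59.1 and 44.9 CPM. The libraries labelled siBANF1 were split in the same manner and further, with 2227 CPM in siBANF1 1, the highest value of the 6 genes, and 51.7 CPM in siBANF1 2. The libraries labelled siSRRM2 held 200.4 and 177 CPM and siCTCF 60.3 and 40.7 CPM. Of 10 ICM-treated libraries 8 lay below both WT libraries. In the order siBANF1, WT, ICM 1-2, siSRRM2, siHMGB2, ICM 3-4 and siCTCF, siHMGB2 and ICM 3-4 were the only neighbours whose libraries did not overlap.

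EGFR, the receptor, differed little among the libraries without ICM and was lower in 8 of the 10 with it. WT held 290.4 and 312 CPM and siHMGB2 290.1 and 278.5 CPM. ICM 2, 3 and 4 held 113, 116 and 79.3 CPM, and ICM 1 held 497 CPM, above both WT libraries. siBANF1 1 was higher still at 1137 CPM, against 117 CPM in siBANF1 2. The libraries labelled siSRRM2 held 137 and 126.5 CPM and siCTCF 118 and 65.7 CPM. In the order siBANF1, ICM 1-2, WT, siHMGB2, siSRRM2, ICM 3-4 and siCTCF, the libraries of siHMGB2, siSRRM2 and ICM 3-4 did not overlap one another. WT and siHMGB2 came as near as 290.4 and 290.1 CPM, within the counting error. EGFR shares 186 exon bases with EGFR-AS1 on the opposite strand, which had 0 to 28 reads, and whether the counting used strand is not given in the sources used here.

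In ICM 3 and 4 compared with WT, AREG, EREG, NRG1 and EGFR fell and HBEGF did not pass the test. AREG fell by 5.78 on the log2 scale (SE 1.10, adjusted p = 0.00399) in edgeR's quasi-likelihood test, adjusted by Benjamini and Hochberg's method over 19126 genes, from 534 and 368 to 17.6 and 0.828 CPM. NRG1 fell by 3.41 (SE 0.24, adjusted p = 7.49e-05) in the same edgeR test, EREG by 1.86 (SE 0.39, adjusted p = 0.00649) and EGFR by 1.81 (SE 0.24, adjusted p = 6.82e-04). For each of these 4 genes, both ICM libraries were below both WT libraries. HBEGF, with 19.1 and 46.9 against 17.0 and 12.15 CPM, had a log2 difference of 0.96 (SE 0.39, adjusted p = 0.0729). The 4 of 5 tested genes called, all lower, stand against a background of 47% of all genes called in either direction and 23.5% called lower. HBEGF passed in DESeq2 (0.94), without the filter (0.91) and with scaling by total counts (1.18). Fits that left out a library had 1 left in its group, so only log2 differences are given. For HBEGF they ran from 0.23 to 1.38 as each library was left out in turn. Left without ICM 3 the difference was -9.39 for AREG and -2.73 for EREG, and left without ICM 4 it was -4.83 and -1.34. In a fit of all 14 libraries, which called 30.3% of genes, none of the 4 passed. Treatment and label set cannot be told apart here, and in bulk RNA fewer cells of a kind and less RNA per cell cannot be told apart either.

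ICM 1 and 2, which have the same treatment label, gave 0 calls among the 5 genes, where 0.173% of all genes were called. AREG had a log2 difference from WT of -4.19 (SE 1.10, adjusted p = 0.152 in edgeR's test) and EREG of -2.60 (SE 0.33, adjusted p = 0.0708), with both ICM libraries below both WT libraries in each case. NRG1 had -0.79 (SE 1.11, adjusted p = 0.7), EGFR 0.01 (SE 0.76, adjusted p = 0.997) and HBEGF -0.02 (SE 0.52, adjusted p = 0.983), a value that turned to 0.11 when libraries were scaled by total counts. These differences average 2 unlike libraries. Leaving out either ICM library left 1 in its group, so only log2 differences are given. Without ICM 1 they were -6.52 for AREG, -3.67 for NRG1, -2.47 for EREG, -1.61 for EGFR and 0.48 for HBEGF. Without ICM 2 they were -3.32 for AREG, -2.72 for EREG, -0.79 for HBEGF, 0.77 for EGFR and 0.12 for NRG1. AREG and EREG had the same direction against WT in both libraries, and HBEGF and EGFR had opposite directions. AREG and EREG had an unadjusted p under 0.05 in edgeR, as had 4019 of all genes, and both were called by DESeq2, which called 1871 genes.

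The difference between the ICM pairs was tested directly, and it passed for 0 of the 5 genes, with 1.25% of all genes called. NRG1 was lower in ICM 3 and 4 than in ICM 1 and 2 by a log2 difference of -2.63 (SE 1.01, adjusted p = 0.183 in edgeR's test) and EGFR by -1.84 (SE 0.74, adjusted p = 0.196). NRG1 and EGFR had an unadjusted p under 0.05, 1 of them (NRG1, -2.67) also called by DESeq2. The libraries of the pairs overlapped for NRG1, and for EGFR by the 116 CPM of ICM 3 against the 113 CPM of ICM 2. Fits that left out a library had 1 left in its group, so only log2 differences are given. As each library was left out in turn, they ran from -5.06 to 0.7 for AREG, -3.53 to 0.23 for NRG1 and -2.58 to -0.24 for EGFR. For HBEGF they ran from 0.21 to 1.76 and for EREG from -0.03 to 1.22. The sign for AREG, NRG1 and EREG thus depended on which library was left out. Small RNA genes separate the same pairs (3.19% and 6.06% of gene counts against 0.00515% and 0.00764%), and their part in these differences was not tested.

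After knockdown of HMGB2 in untreated cells 3 of the 5 tested genes fell, where 10.7% of all genes were called in either direction and 4.71% were called lower. NRG1 fell by 1.58 on the log2 scale (SE 0.18, adjusted p = 1.83e-09 in edgeR's test), from 534 and 431 to 202 and 109 CPM. EREG fell by 1.51 (SE 0.18, adjusted p = 4.27e-09), from 97.4 and 71.7 to 37.7 and 19.2 CPM. AREG fell by 0.72 (SE 0.19, adjusted p = 0.00505), with the groups almost touching. HBEGF was higher in both siHMGB2 libraries than in both WT libraries, with a log2 difference of 0.49 (SE 0.17, adjusted p = 0.0519 in edgeR's test). The nearest of these, siHMGB2 2 at 17.44 CPM and WT 1 at 17.04 CPM, were within counting error of each other. EGFR had a log2 difference of -0.02 (SE 0.14, adjusted p = 0.991). AREG lost its call in DESeq2 (-0.72) and with a minimum mean of 1 CPM (-0.72). Leaving out a library left 1 in its group, so only log2 differences are given. As each library was left out in turn, they ran from -1.3 to -0.31 for AREG and from 0.26 to 0.75 for HBEGF. In a fit of all 14 libraries, whose shared spread includes that of the ICM libraries, none of the 3 calls passed. Scaling by total counts turned the division of all called genes from 1154 higher and 901 lower to 939 and 1184. The siHMGB2 and ICM comparisons share the WT libraries, so their values are given side by side and not as separate support.

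**Figure D3:**
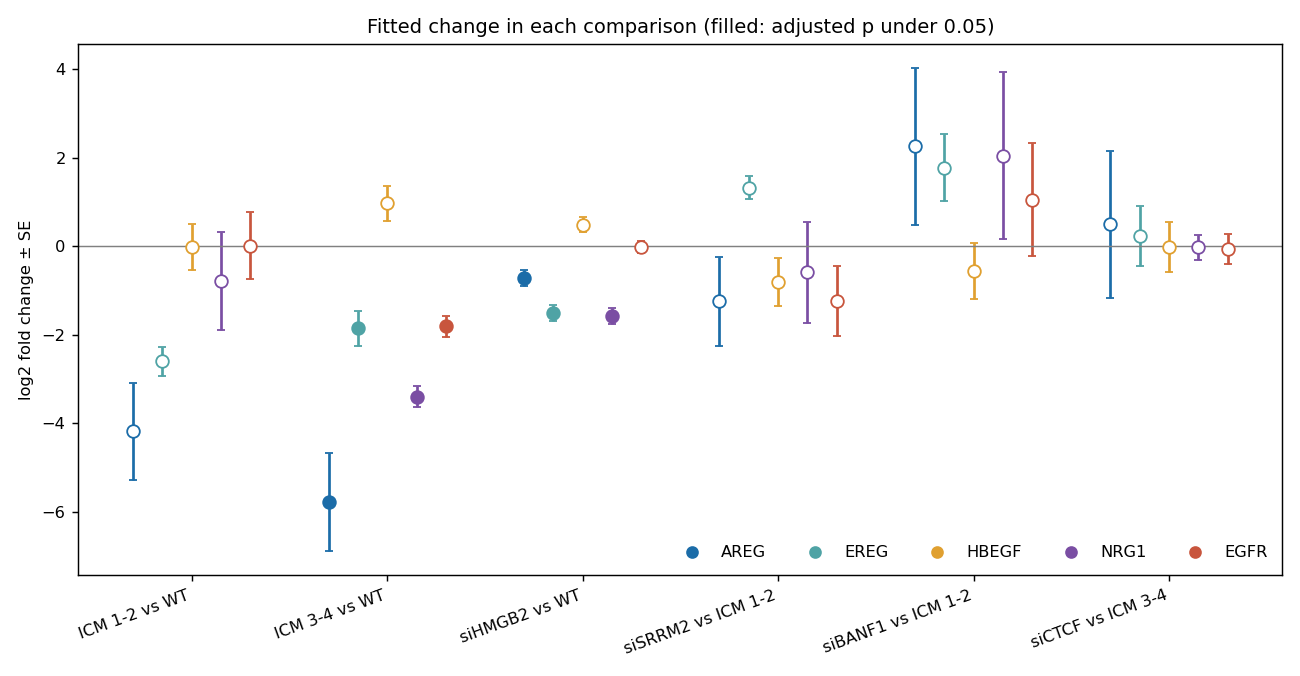
Fitted log2 fold change (vertical axis) with its standard error for the 5 tested genes in 6 comparisons, filled where the adjusted p is under 0.05. The filled points are AREG, EREG, NRG1 and EGFR for ICM 3-4 and AREG, EREG and NRG1 for siHMGB2, all below 0, and the widest standard errors are 1.89 for NRG1 with siBANF1 and 1.77 and 1.66 for AREG with siBANF1 and siCTCF.

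Against the ICM libraries of their sets, 0 of the 5 genes passed the test in the libraries labelled siSRRM2, siBANF1 or siCTCF, where 0% of all genes were called in each. In the libraries labelled siSRRM2, EREG had a log2 difference of 1.32 (SE 0.26, adjusted p = 0.641 in edgeR's test) with both libraries above both of ICM. AREG had -1.25 (SE 1.01) and EGFR -1.24 (SE 0.78). The libraries labelled siSRRM2 differed little from each other, and ICM 1 and 2 differed much more. With 1 ICM library left out, 1 remained in its group, so only log2 differences are given. Without ICM 1 they were 1.14 for EREG, 2.18 for NRG1, 0.99 for AREG, 0.28 for EGFR and -1.36 for HBEGF. Without ICM 2 they were 1.51 for EREG, -1.49 for NRG1, -2.09 for AREG, -1.97 for EGFR and 0.04 for HBEGF. EREG kept its sign, and NRG1, AREG, EGFR and HBEGF did not. Both fits hold the same 2 libraries labelled siSRRM2, so they are not separate support for EREG. Unadjusted, 1459 genes had a p under 0.05 in this comparison, and DESeq2 called 204.

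For each of the 5 genes the libraries labelled siBANF1 lay further apart than the fitted difference from ICM. For EREG both were above both ICM libraries, at 77.3 and 21.1 CPM against 12.4 and 17.5 CPM. For the other genes the libraries of the groups overlapped. AREG had a log2 difference of 2.25 (SE 1.77), NRG1 of 2.04 (SE 1.89), EREG of 1.77 (SE 0.75), EGFR of 1.05 (SE 1.28) and HBEGF of -0.57 (SE 0.64), and the adjusted p from edgeR was 1 for each. siBANF1 1 stood at 5.21 times the CPM of ICM 1 for AREG, 6.22 times for EREG, 4.37 times for NRG1, 2.29 times for EGFR and 0.921 times for HBEGF. siBANF1 2 stood at 1.05, 1.2, 1.19, 1.04 and 0.574 times ICM 2 for the same genes. No test bears on these ratios of single libraries. In this comparison 34 genes had an unadjusted p under 0.05 and DESeq2 called 0.

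In siCTCF compared with ICM 3 and 4, the log2 differences were 0.49 for AREG (SE 1.66), 0.23 for EREG (SE 0.67), -0.02 for HBEGF (SE 0.56), -0.02 for NRG1 (SE 0.28) and -0.07 for EGFR (SE 0.35), and edgeR's adjusted p was 1 for each. siCTCF 1 resembled ICM 3 and siCTCF 2 resembled ICM 4, with AREG at 25.1 and 17.6 CPM in the first of these and 0.448 and 0.828 CPM in the second. AREG in siCTCF thus stood at 1.42 times ICM 3 and 0.541 times ICM 4. A fit with these pairs as a replicate block, a pairing the labels do not give, had a log2 difference of 0.34 for AREG (SE 0.20, adjusted p = 1 in edgeR's test). By the chi-square statistic per gene, siCTCF 2 and ICM 4 (1.75) were closer than the libraries of any group but those labelled siSRRM2. CTCF itself did not pass the test in this comparison. Unadjusted, 31 genes had a p under 0.05 and DESeq2 called 0.

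In several groups the 2 libraries lay far apart in these genes. The higher library of AREG was 1.45 times the lower in WT and 2.00 times in siHMGB2, against 7.78 times in ICM 1-2, 38.6 times in siBANF1, 21.3 times in ICM 3-4 and 55.9 times in siCTCF. NRG1 spread over 11.7 times in ICM 1-2 and 43.1 times in siBANF1. In ICM 3-4 and siCTCF it spread over 1.31 and 1.48 times, where AREG spread over 21.3 and 55.9 times. EGFR followed NRG1, with 4.39 and 9.69 times against 1.47 and 1.80 times. EREG and HBEGF stayed within 3.77 times in every group, and the libraries labelled siSRRM2 stayed within 1.2 times for all 5. The summed fibroblast markers were higher in the library with more AREG in 4 groups, at 11241 and 2770 CPM in ICM 1 and 2, 7900 and 3289 CPM in the pair labelled siBANF1, 3863 and 1830 CPM in ICM 3 and 4, and 3851 and 1590 CPM in siCTCF. They were lower in it in the other 3, at 18044 and 24406 CPM in WT, 25604 and 30772 CPM in siHMGB2, and 8480 and 8152 CPM in the pair labelled siSRRM2. The 6 endothelial markers summed to 6.34 to 10.9 CPM without ICM, 2.95 CPM in ICM 1 and 6.82 CPM in siBANF1 1. In the other 8 libraries they summed to 0.0788 to 0.985 CPM. The libraries with the higher sums also had the most AREG, but in another order, the highest sum being in siHMGB2 1. KDR reached 8.13 CPM, whereas PECAM1 stayed at or below 0.135 CPM and CDH5 had no read in 12 libraries. The 6 immune markers summed to 13.1 CPM in ICM 1, 5.62 and 6.45 CPM in the pair labelled siSRRM2 and 4.69 CPM in siBANF1 1, against 0.646 to 1.79 CPM in the rest. CD14 was present in every library, at 0.243 to 12.95 CPM, and CD3E and MS4A1 were at 0 in all. The epithelial markers were at 0 in ICM 3, ICM 4, siCTCF 2 and siBANF1 1 alike. Mitochondrial genes took 0.454% of gene counts in ICM 1 and 0.754% in siBANF1 1, against 0.0677% in ICM 2 and 0.0685% in siBANF1 2, 0.215% to 0.252% in ICM 3-4 and siCTCF, and 2.7% to 3.54% without ICM. Reads in no gene made up 35.2% and 41.8% of ICM 1 and siBANF1 1 and 26.5% and 28.4% of ICM 2 and siBANF1 2. The part of these markers and RNA measures in the levels of the 6 genes was not tested.

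**Figure D4:**
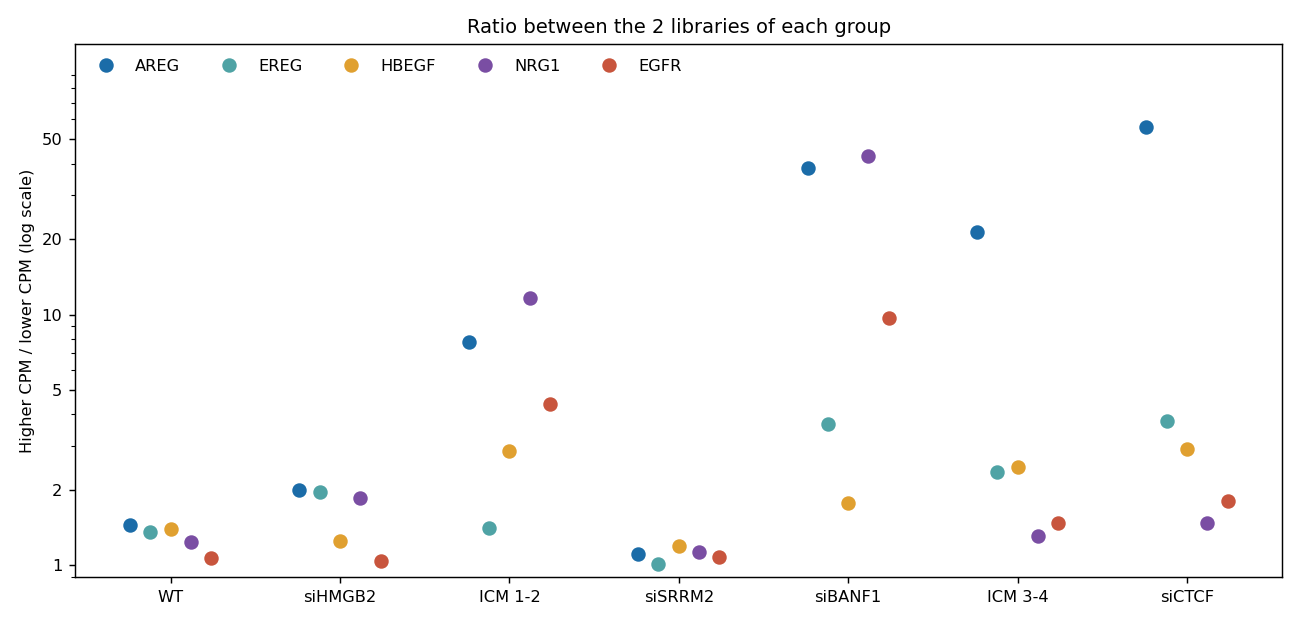
Ratio of the higher to the lower CPM of the 2 libraries of each group (vertical axis, log scale) for the 5 tested genes. AREG reaches 55.9 in siCTCF and 38.6 in siBANF1 and NRG1 43.1 in siBANF1, while all 5 genes stay at 2.00 or less in WT, siHMGB2 and siSRRM2.

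The remaining ligands of the family were scarce in all libraries. EGF stood at 0.549 to 2.20 CPM, BTC and EPGN at no more than 0.299 and 0.394 CPM, and NRG3 had no read. NRG4 measured 0.626 and 0.741 CPM in WT and had no read in ICM 3 and 4. By the limit of about 3 reads given for TGFA, a count of 0 there allows up to 0.125 and 0.118 CPM. NRG4 passed the filter on low counts through the libraries without ICM, where it is highest, so no test of it is given. Of the other receptors, ERBB2 held 24.9 to 76.1 CPM over the 14 libraries, whereas ERBB3 and ERBB4 stayed at or below 0.828 and 0.394 CPM. ERBB3 and ERBB4 had too few reads for a test to be informative, so none is given. ERBB2 did not pass the test in any comparison, where from 0% to 47% of all genes were called. ERBB2 had a log2 difference of -0.45 (SE 0.24, adjusted p = 0.153 in edgeR's test) between ICM 3-4 and WT, beside the -1.81 of EGFR.

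Among 7 genes of ligand shedding, 5 fell and 0 rose in ICM 3 and 4 compared with WT. These were the sheddases ADAM17 (-0.59), ADAM10 (-1.02), ADAM9 (-1.11) and ADAM12 (-2.04) and the iRhom gene RHBDF1 (-1.05), whose product carries ADAM17 to the cell surface. RHBDF2 and FRMD8 did not pass. The median log2 difference of the list was -1.02, with 0 over all genes. ADAM17, the main sheddase of AREG, HBEGF and TGFA, measured 64.3 and 61.7 CPM in WT against 39.4 and 56.8 CPM in ICM 3 and 4. In ICM 1 and 2 compared with WT 0 of the 7 passed, where 0.173% of all genes were called. The list median there was -0.035, beside 0.15 over all genes. ADAM9 there held 762.5 and 773.4 CPM against 473 and 535 CPM in WT, a log2 difference of 0.53 (SE 0.35, adjusted p = 0.429 in edgeR's test), and ADAM10 had 0.45. Between the ICM pairs 0 of the 7 passed, where 1.25% of all genes were called. After HMGB2 knockdown FRMD8 rose by 0.91 and ADAM12 fell by 0.49 on the log2 scale, and the other 5 genes did not pass. Over all genes, 23.5% rose and 23.5% fell in ICM 3 and 4 compared with WT, and 6.03% rose and 4.71% fell after HMGB2 knockdown.

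Calls among genes downstream of EGFR went in both directions, as did those over all genes, of which 23.5% rose and 23.5% fell in ICM 3 and 4 compared with WT. Of 17 feedback inhibitors of EGFR and ERK, 6 rose and 6 fell in ICM 3 and 4 compared with WT, with a list median of 0.17. The largest called change was in SPRY1, an inhibitor of receptor signalling to RAS, which fell from 38.1 and 42.0 CPM to 5.61 and 4.26 CPM, or by 3.21 on the log2 scale. Of 15 components of the RAS and MAPK cascade 4 rose and 4 fell, MAP2K1, which encodes the ERK kinase MEK1, most (1.41). DUSP4, DUSP6, SPRY2 and SPRY4 are in the list of feedback inhibitors and in that of ERK outputs, so any call of theirs counts in each. Of 15 genes known as transcriptional outputs of ERK, 6 rose and 7 fell with a median of -0.10. The largest called change of these was in EGR1, an immediate-early transcription factor, which fell by 3.15 from 212 and 210.4 CPM to 29.03 and 25.1 CPM. With HMGB2 knocked down, where 6.03% of all genes rose and 4.71% fell, 1 feedback inhibitor rose and 2 fell, SPRY1 by 0.99. In the cascade 2 components rose, NRAS by 0.67, and none fell. Of the ERK outputs 2 rose and 1, FOS, fell by 0.72. In ICM 1 and 2 compared with WT 0 genes of these lists passed, where 0.173% of all genes were called. In the groups labelled siSRRM2, siBANF1 and siCTCF compared with ICM 0 also passed, where 0% of all genes were called in each. With so few calls over all genes, these counts say little of the pathway. Between the ICM pairs 1.25% of all genes were called. DUSP6, a phosphatase of ERK that is also listed as an ERK output, was the 1 feedback inhibitor called. It held 151 and 237 CPM in ICM 1 and 2 and 31.6 and 30.1 CPM in ICM 3 and 4. FOSL1, a subunit of AP-1, was the called ERK output with the largest change there (log2 difference 3.27), at 29.3 and 47.7 CPM against 372 and 440.5 CPM. IER3 had a larger difference, 3.86, that did not pass (adjusted p = 0.0851 in edgeR's test).

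**Figure D5:**
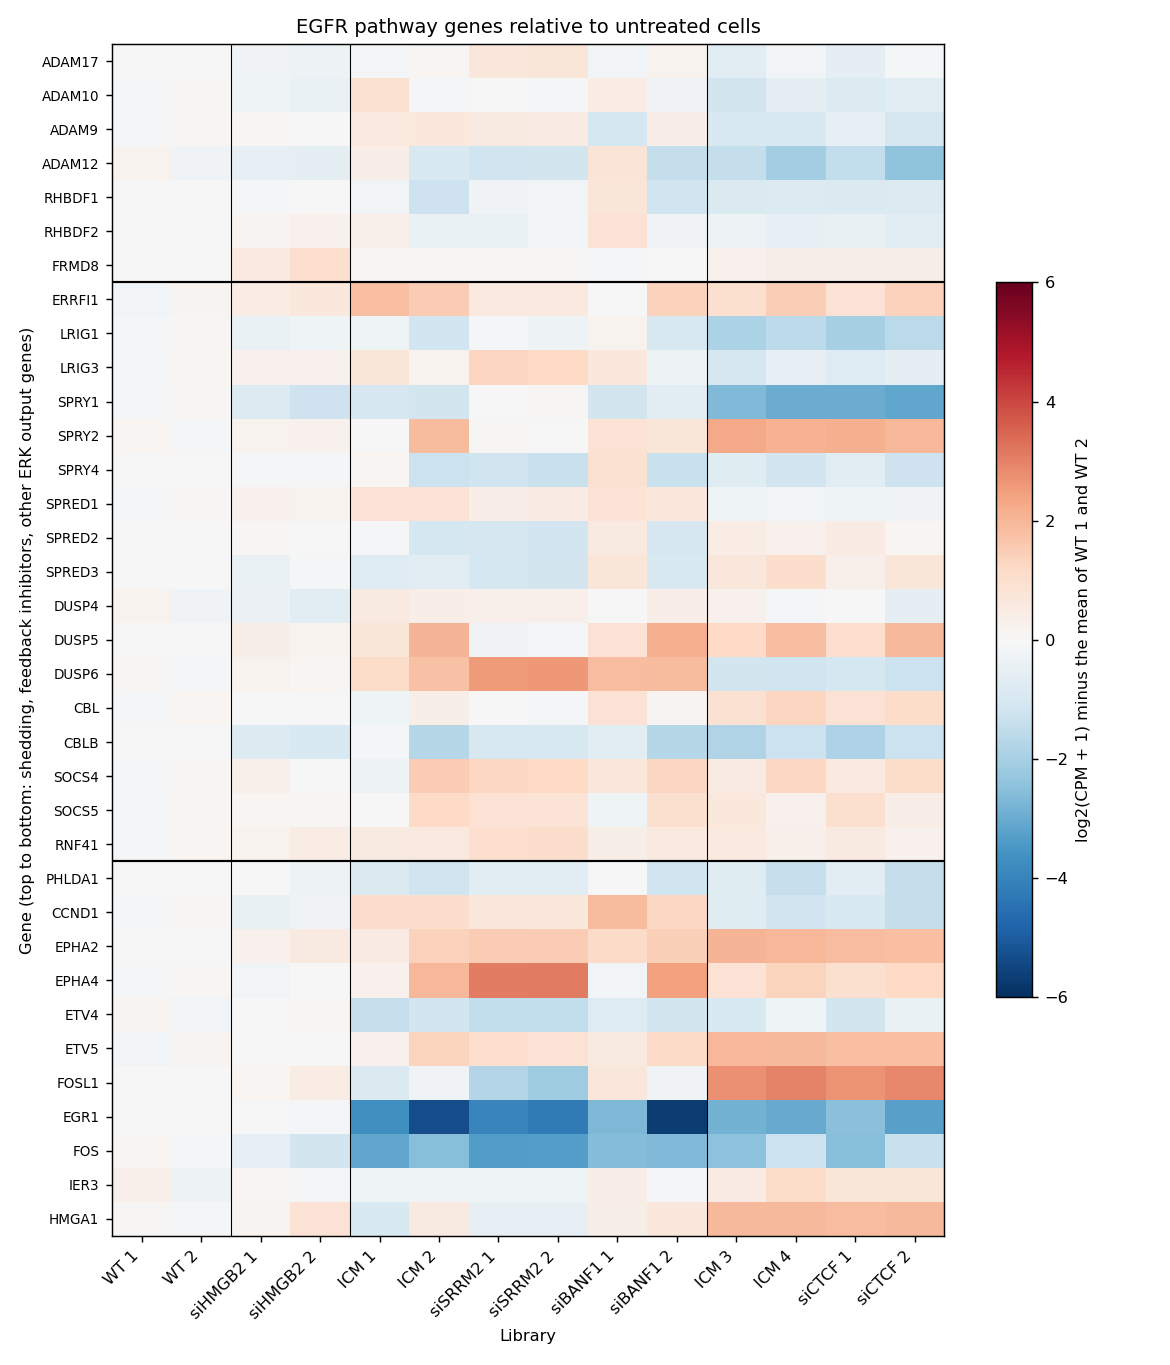
Difference of log2(CPM + 1) from the mean of the WT libraries (colour) for genes of ligand shedding, feedback inhibition and ERK output (rows) in the 14 libraries (columns, with lines between cells without ICM, the 6 ICM-treated libraries of the first set and the 4 of the second). SPRY1 and EGR1 are below WT in ICM 3 and 4 while FOSL1 is above, at 372 and 440.5 CPM.

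The genes most like each member were found among 10382 genes by the root mean square difference of log2(CPM + 1), centred on its mean over the 14 libraries, which is smaller the closer the patterns. EGFR was matched most closely, by NAV1 (0.18), ADCY9 (0.263) and PTPRS (0.292), against a spread of its own of 1.09. NRG1 (1.68) was nearest to ATP8B4 (0.461) and then to IL18R1 (0.6) and IL1A (0.674), which encode an interleukin receptor chain and interleukin 1 alpha. EREG (0.91) was nearest to SMOX (0.451), BMP6 (0.467) and TNFAIP6 (0.529), and HBEGF (0.776) to BRMS1L (0.286), BEND7 (0.328) and SLC22A23 (0.328). AREG, which spread most (2.77), was nearest to RGS5 (1.05), SCG2 (1.07) and C11orf96 (1.1). These differences grow with the spread of the gene itself. Within the family NRG1 and EGFR were the closest pair (0.816) and AREG and HBEGF the most distant (3.2), and AREG was closer to NRG1 (1.9) than to its neighbour EREG (2.24). These are descriptions over libraries that share cells, sets and depth.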

How the data were processed

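RNA-seq counts of 14 libraries were used as the authors deposited them, which are raw read counts for each gene symbol, 1 table per library with no pooling. The submitters' processing notes name STAR 2.7.3a, HTSeq 0.12.4, DESeq2 1.36.0 and the build hg38, without their roles. The annotation release and the strand setting are not given in the sources used here. The 5 lines for reads given to no gene (12.75% to 41.78% of a library) were left out of totals and tests. CPM is the count scaled to the gene counts of its library and is given per library.

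Genes were filtered by filterByExpr on the 7 groups (19126 kept), scaled by TMM and tested with edgeR 4.0.16 (quasi-likelihood, R 4.3.3) on the 4 libraries of each comparison, since ICM 1-2 and siBANF1 spread more than other groups, with calls at a Benjamini-Hochberg adjusted p under 0.05. Fold changes are differences of fitted log2 values. The fits were tested on simulated data. Alternatives were other scalings (RLE, total counts), filters (none, a mean of 1 CPM, protein-coding genes), an adjusted p under 0.01, DESeq2 1.42.0, 1 fit of all 14 libraries, a replicate block, and leaving out each library, whose fits on the compared libraries alone were added after seeing the data. The members, lists and tests were chosen with earlier results of these data known. All members are named. Of lists over 10 genes, the called gene with the largest change is named, and for likeness the 3 nearest genes of those that average 5 CPM or more. Lengths and overlaps are from GENCODE v29, positions and promoters from RefSeq (GRCh38.p14). Python 3.11.15 with pandas 2.3.3, numpy 2.4.6, scipy 1.17.1 and matplotlib 3.10.9 was used.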

Additional observations from a re-analysis of the deposited data

How the results depend on the processing

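Depth limits TGFA, with 12 reads in all, and AREG in ICM 4 and siCTCF 2, and 2 libraries a group limit every test. Counts of members called (of 5) changed as follows. For ICM 1-2 against WT, 0 became 2 without a filter, 2 with DESeq2, 2 with a replicate block and 1 in the fit of all 14 libraries. In that fit 4 became 0 for ICM 3-4 against WT and 3 became 0 for siHMGB2 against WT. For ICM 3-4 against ICM 1-2, 0 became 3 without a filter and 1 with DESeq2. Leaving out each library in fits of the compared libraries set 1 library against 2, so members called in these fits are not counted here. It gave 0 in each comparison in fits of all remaining libraries. Over both kinds of fit, the log2 values that changed sign when a library was left out, none of them called with all libraries, ran from -0.90 to 0.48 (HBEGF), -3.68 to 0.12 (NRG1) and -1.62 to 0.77 (EGFR) in ICM 1-2 against WT, and from -0.07 to 0.03 (EGFR) in siHMGB2. In siSRRM2 they ran from -2.12 to 0.99 (AREG), -1.36 to 0.04 (HBEGF), -1.51 to 2.18 (NRG1) and -2.0 to 0.28 (EGFR), and in siBANF1 from -2.17 to 4.56 (AREG), -1.10 to 0.30 (HBEGF), -2.53 to 4.89 (NRG1) and -1.48 to 2.64 (EGFR). In siCTCF they ran from -4.46 to 4.05 (AREG), -1.14 to 1.03 (EREG), -0.93 to 0.73 (HBEGF), -0.42 to 0.27 (NRG1) and -0.65 to 0.33 (EGFR), and between the ICM pairs from -5.12 to 0.72 (AREG), -0.07 to 1.30 (EREG) and -3.53 to 0.23 (NRG1). Values of opposite sign were, for HBEGF in ICM 1-2 against WT, 0.02 with RLE, 0.11 with total counts, 0.04 with protein-coding genes, 0.03 without a filter and 0.02 with DESeq2. EGFR in ICM 1-2 against WT gave -0.07 in the fit of all 14 libraries and -0.43 with the replicate block, and NRG1 in siSRRM2 gave 0.35 with the block. Leaving these 8 aside, and all fits that left out a library, 273 log2 values of single members kept their direction and side of the threshold, 15 gained a call and 9 lost one. The cause was not tested.

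Genes called among all genes changed from 33 for ICM 1-2 against WT to 89 with total counts, 0 with protein-coding genes, 2547 without a filter, 0 with a mean of 1 CPM, 1871 with DESeq2, 2580 in the fit of all 14 libraries, 0 at an adjusted p under 0.01 and 1445 with the replicate block. For ICM 3-4 against WT 8993 became 5796 in the fit of all 14 and 5587 at 0.01, and for siHMGB2 2055 became 0 and 1340. For siSRRM2 0 became 204 with DESeq2, 34 in the fit of all 14 and 103 with the block, for siBANF1 5 without a filter and 1 with the block, and for siCTCF 4 with the block. Between the ICM pairs 239 became 523 with total counts, 1 with protein-coding genes, 2685 without a filter, 95 with a mean of 1 CPM, 2312 with DESeq2, 3739 in the fit of all 14 and 18 at 0.01. Total counts moved the median log2 difference of all genes in ICM 3-4 against WT from 0 to 0.18.

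The labels do not say that replicate numbers mark a shared culture. With the replicate block, HBEGF in siHMGB2 was called at 0.50, AREG and EREG in ICM 1-2 against WT were called at -4.89 and -2.59, and siHMGB2 had 2293 called genes. Deviations of same-numbered libraries from their group means correlated over 19126 genes at -0.17 for ICM 1-2 and WT, 0.17 for siHMGB2 and WT, 0.04 for siSRRM2, 0.85 for siBANF1 and 0.76 for siCTCF with their ICM libraries.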
